A study of Mus musculus with 4 samples.

Results

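The 40 genes described here encode proteins of G2 and mitosis: the Cdk1 kinase with its cyclins, the mitotic kinases, the kinetochore, the spindle, the cytokinesis machinery and the proteins that shape chromosomes. They were taken as a list of named mouse genes, which was chosen with earlier results of these data known. All 40 were found among the 17561 genes of the count table, and each had at least 100 unique molecular identifiers (UMIs, each counted as 1 captured RNA molecule) over the 11754 cells. Levels are given as CPM (counts-per-million), the summed UMIs of a gene in a group of cells scaled by the UMI total of that group.

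The cells were CD8+ T cells sorted from the BM of female adult mice on a C57BL/6 background (substrain C57BL/6J by the study's methods), WT or transgenic for a modified CRBN (cereblon) that lets lenalidomide degrade Aiolos and Ikaros. All recipients carried Vk12653 myeloma, received SCT with 10000000 BM cells and 5000000 T cells per graft according to the sample labels (the study's text also gives a smaller T cell dose), and were harvested at day 28. They were given isotype antibody (cIg) or αTIGIT from the day of SCT, and vehicle or lenalidomide from day 14. The 4 treatments were cIg with vehicle, αTIGIT with vehicle, lenalidomide with isotype antibody, and αTIGIT with lenalidomide. Each treatment was 1 library of 5 pooled mice, so no value can be tied to a single mouse or to its CRBN genotype. The deposited tables number the libraries 1 to 4 and name no treatment, so values are given by library number and no treatment is compared. With 1 library per treatment there are no replicates and no test was made.

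Transcripts of mitotic genes are low or absent in resting T cells, rise late in S phase, peak in G2 and mitosis, and fall again as the daughter cells enter G1. Their promoters are held silent in resting cells by the DREAM complex and are activated later by B-Myb and FoxM1, through a short element called CHR (cell cycle genes homology region) and through CCAAT boxes bound by NF-Y. In CD8+ T cells, antigen drives rapid division of effector cells, whereas naive cells rest, and part of the exhausted pool keeps dividing under persistent antigen.

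The promoters of the members held the letters of these elements more often than promoters at large. RefSeq windows of 300 bases (250 before to 50 after a gene's start, GRCm38.p6) were at hand for 33 of the 40 members, in 34 windows. The CHR letters TTTGAA or TTCGAA, read on both strands, were in a window of 26 of 33 members (78.8%), against 21.7% of all 27025 genes in the table. CCAAT, also on both strands, was likewise in 26 members (78.8%), against 41.1% of all genes, and both were in 23 members (69.7%), against 8.61%. At least 2 CCAAT copies were in 19 members (57.6%) and 13.3% of all genes. A pair of CCAAT boxes on the same strand, 31 to 33 bases apart from start to start (a distance chosen after these sequences were seen), was in 7 members (21.2%) and 0.918% of all genes. A match is a description of the letters, not a binding site.

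The stretches below run 5′ to 3′ on the gene's strand from 120 bases before to 25 bases after the RefSeq start, with CHR and CCAAT letters in capitals (TTCAAA and ATTGG are the same letters read on the other strand). They show a range of motif arrangements in members on which the results turn: Cdk1 and its cyclins, members with high and with low ratios of cycling cells to other cells, and members without CHR letters.
Cdk1, chr10:69352888-69353032, minus strand: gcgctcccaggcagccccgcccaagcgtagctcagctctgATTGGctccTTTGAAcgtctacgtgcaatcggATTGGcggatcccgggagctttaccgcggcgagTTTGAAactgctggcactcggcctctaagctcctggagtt
Ccnb2, chr9:70421530-70421674, minus strand: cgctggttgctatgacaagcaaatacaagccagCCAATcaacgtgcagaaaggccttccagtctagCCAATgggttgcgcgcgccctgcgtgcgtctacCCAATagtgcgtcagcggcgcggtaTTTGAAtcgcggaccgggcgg
Ube2c, chr2:164769809-164769953, plus strand: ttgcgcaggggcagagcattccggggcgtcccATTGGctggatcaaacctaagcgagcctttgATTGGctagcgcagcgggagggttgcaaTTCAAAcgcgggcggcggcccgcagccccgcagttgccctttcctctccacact
Hmmr, chr11:40733413-40733557, minus strand: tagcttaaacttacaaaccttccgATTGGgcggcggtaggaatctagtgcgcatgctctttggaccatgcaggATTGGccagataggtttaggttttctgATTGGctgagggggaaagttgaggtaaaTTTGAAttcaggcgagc
Cdc20, chr4:118437319-118437463, minus strand: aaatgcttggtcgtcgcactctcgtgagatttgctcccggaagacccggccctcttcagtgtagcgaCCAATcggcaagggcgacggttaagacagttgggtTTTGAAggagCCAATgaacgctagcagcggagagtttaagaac
Plk1, chr7:122159315-122159459, plus strand: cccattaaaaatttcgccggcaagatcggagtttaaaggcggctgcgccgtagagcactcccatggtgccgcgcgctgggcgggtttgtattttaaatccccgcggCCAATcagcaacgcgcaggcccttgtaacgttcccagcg
Ccnb1, chr13:100786462-100786606, minus strand: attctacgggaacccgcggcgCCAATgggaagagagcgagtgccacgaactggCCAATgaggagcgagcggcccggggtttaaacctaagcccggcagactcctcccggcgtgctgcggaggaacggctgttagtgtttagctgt
Cks2, chr13:51645112-51645256, plus strand: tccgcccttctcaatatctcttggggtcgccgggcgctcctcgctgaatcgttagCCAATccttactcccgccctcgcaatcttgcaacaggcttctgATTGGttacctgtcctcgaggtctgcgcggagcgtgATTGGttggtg
Cenpa, chr5:30666766-30666910, plus strand: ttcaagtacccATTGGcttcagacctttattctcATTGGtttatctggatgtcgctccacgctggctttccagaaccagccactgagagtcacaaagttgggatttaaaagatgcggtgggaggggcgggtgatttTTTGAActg
Racgap1, chr15:99651632-99651776, minus strand: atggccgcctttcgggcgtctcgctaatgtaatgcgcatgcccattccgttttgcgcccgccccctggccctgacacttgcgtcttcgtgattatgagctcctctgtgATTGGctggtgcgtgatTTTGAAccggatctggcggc

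Cdk1 and Ube2c each held a spaced pair of CCAAT boxes upstream of a CHR match, and Ccnb2 held 3 CCAAT boxes in a row. In Plk1 the CHR letters began 31 bases after the start and so lie outside the stretch printed. Ccnb1 and Cks2 had CCAAT boxes and no CHR letters in the whole window. Racgap1 held both motifs although its transcript was among the least restricted to cycling cells.

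Libraries 1 to 4 held 4237, 2003, 1725 and 3789 cells with 15556967 to 38440687 UMIs, and single cells had 2502 to 24983 UMIs. A total of 56 cell barcodes occurred in more than 1 library. The cluster names are the authors', and the cluster they named cycling Tex (here cycling cells) held 1928 cells, or 16.4% of the total, with 19.6%, 11.4%, 20.1% and 13.8% in libraries 1 to 4. Its name was set against Pclaf, Tyms, Rrm2, Mcm5, Hmgb2 and Tubb5, none of them members. Their summed CPM was 5802 in cycling cells and 806 to 1281 elsewhere, and Hmgb2 (3102) and Tubb5 (1504) made up most of the former. The clusters were built from expression, so these values describe the cycling cluster and are no independent check of its name. In cycling cells the summed CPM of 5 exhaustion genes (Pdcd1, Tox, Havcr2, Lag3 and Entpd1) was 970. It was 957 in transitory Teff, 1830 in TIM-3+ Tex and 70.4 in Tn. The 5 naive and central memory genes had 244 CPM in cycling cells and 1481 in Tn. CD8 T cell genes had 3883 to 8146 CPM in every cluster. Macrophage genes had 1450 CPM in GzmA+ Tex and 10.9 to 92.1 in the other clusters. With the libraries together, summed marker CPM was 128 to 226 for plasma and myeloma cells and 4.59 to 16.5 for B cells. It was 3.86 to 24.997 for erythroid cells, 2.75 to 35.4 for neutrophils and 19.5 to 407 for NK cells. Progenitors had at most 2.69, and 2 of their 3 genes were in the table. In GzmA+ Tex of library 3, plasma and myeloma genes had 630 CPM, against 144 to 186 in its other libraries.

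Cycling cells carried most of the mitotic RNA of the data set. They held 16.4% of cells and 25.3% of all UMIs, but 221346 of the 269584 member UMIs (82.1%). The summed CPM of the 40 members was 8258 in cycling cells and 609 in the 7 other clusters together. By library it was 8418, 6621, 10727 and 7289 CPM in cycling cells, and 703, 537, 693 and 517 CPM elsewhere. The ratio was 13.6-fold (log2 3.76, 95% interval 3.75 to 3.78), with 12.0-, 12.3-, 15.5- and 14.1-fold in libraries 1 to 4. Intervals are 95% and cover counting error only. Those of CPM are exact Poisson, those of ratios come from the binomial split of UMIs between both groups, and those of shares of cells are Clopper-Pearson. The clusters were built from the expression of these and other genes, so their differences describe the clusters and are no test of them.

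Outside cycling cells the level was low but not even. Tcm was lowest at 434 CPM (426 to 442), followed by GzmB+ Teff at 513 (496 to 531) and Tn at 535 (522 to 549), which overlapped. Transitory Teff had 579 CPM (566 to 592) and TIM-3+ Tex 695 (679 to 711). TIGIT+ Teff at 1013 CPM (988 to 1038) and GzmA+ Tex at 1042 (1018 to 1067) overlapped and, with the libraries together, stood above the rest. For TIGIT+ Teff this did not hold over short genes, as the members whose gene spans under 10000 bases summed to 292 CPM there and to 308 in TIM-3+ Tex. TIGIT+ Teff cells also had a median of 2.87% mitochondrial RNA, with 0.656% Malat1 and 18.6% ribosomal protein transcripts among their summed UMIs. The order was not the same in each library. TIGIT+ Teff had 1059, 828, 1092 and 612 CPM in libraries 1 to 4, and GzmA+ Tex had 1188, 1004, 801 and 988. In library 4 the interval of TIGIT+ Teff (549 to 679) overlapped those of TIM-3+ Tex (578 to 630) and transitory Teff (536 to 577). In library 3 that of GzmA+ Tex (742 to 863) overlapped those of TIM-3+ Tex (679 to 874) and transitory Teff (682 to 773). The 5 Teff and Tex clusters together had 733 CPM against 464 in Tn and Tcm, a log2 ratio of 0.66 (0.63 to 0.69) and 1.75-, 1.44-, 1.49- and 1.47-fold in libraries 1 to 4. The plot of summed CPM shows these levels by cluster and library.

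**Figure D1:**
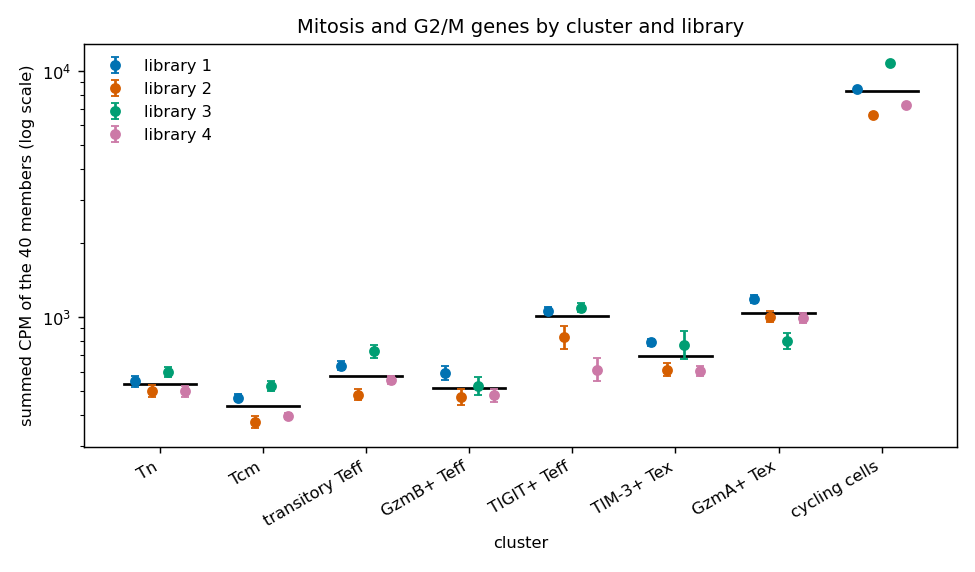
Summed CPM of the 40 members (vertical axis, log scale) in each cluster (horizontal axis), with 1 point per library, exact Poisson 95% intervals as error bars, and a horizontal line for the 4 libraries together. Cycling cells lie at 6621 to 10727 CPM in single libraries and no other cluster exceeds 1188.

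A single member, Smc4, made up much of the low level. Smc4 is an ATPase subunit of condensin, which compacts chromosomes. It supplied 40.5% of the member UMIs in Tn and 40.2% in Tcm, 17.6% to 28.96% in the Teff and Tex clusters, and 5.50% in cycling cells. Without Smc4 the ratio of cycling cells to the others was 18.1-fold, and that of Teff and Tex to Tn and Tcm was 2.03-fold (log2 1.02, 0.99 to 1.06). In Tn, the members next in UMIs after Smc4 were Racgap1, Cks2, Stmn1 and Cks1b, and these 5 made up 75.4% of the member UMIs. In Tcm they were Racgap1, Stmn1, Cks2 and Top2a (69.8% with Smc4), and in transitory Teff Stmn1, Cenpa, Racgap1 and Cks2 (64.4%). The first 5 of GzmB+ Teff were Smc4, Stmn1, Cks2, Racgap1 and Cenpa (64.1%), and those of TIM-3+ Tex were Smc4, Cenpa, Stmn1, Cks2 and Top2a (63.8%). Mki67 entered the first 5 in TIGIT+ Teff, with 15.6% of member UMIs behind Smc4, and in GzmA+ Tex, with 7.19%. In cycling cells the first 5 were Stmn1, Mki67, Top2a, Ube2c and Smc4, with 40.6% of member UMIs in all.

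Every member was more abundant in cycling cells than in the other clusters. All 40 had a ratio of at least 2, with the libraries together (7.38% of the 10991 genes with at least 100 UMIs did) and in each of the 4 libraries (5.22% of genes). The median ratio of the members was 28.2-fold (2.55 to 56.6), and that of all genes was 1.07-fold. Of the members, 18 had a ratio of at least 30, 18 had 10 to 30 and 4 had less than 10. They took 14 of the 40 highest ratios among all genes, 31 of the 100 highest and 38 of the 200 highest. In Tn, taken as the background cluster, the level of a member was 0.751% to 47.8% of its level in cycling cells (median 2.16%), and it was under 5% for 32 members.

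**Figure D2:**
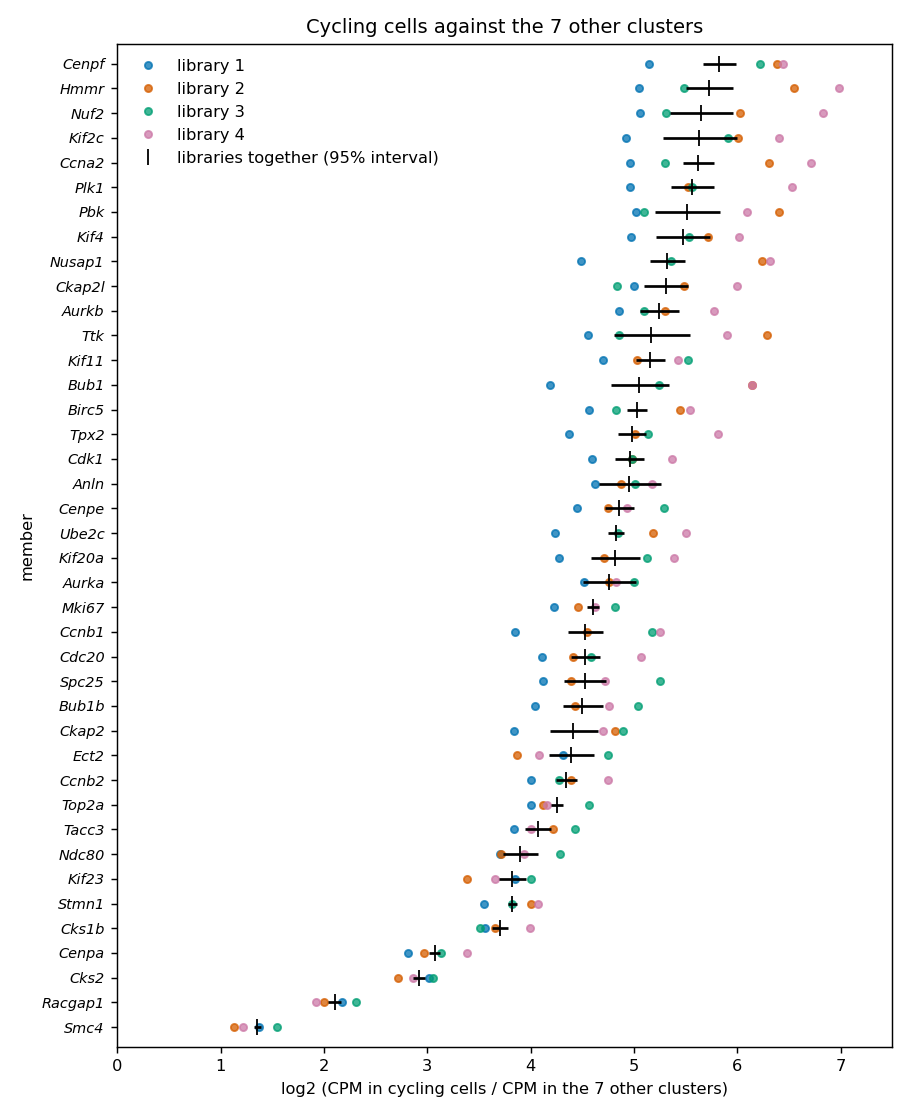
Log2 ratio of CPM in cycling cells to CPM in the 7 other clusters (horizontal axis) for each member (vertical axis, ordered by ratio), with points for libraries 1 to 4, and a tick with a horizontal line for the libraries together and their 95% interval. Ratios run from log2 1.35 for Smc4 to 5.82 for Cenpf, and the points of the 4 libraries are spread more widely than the intervals for most members.

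The Cdk1 group (Cdk1, its cyclins and Cks subunits, and the anaphase-promoting complex with its partners) had a median ratio of 23.1-fold. Cdk1 (ENSMUSG00000019942; chromosome 10, 69335146 to 69352938, minus strand), the kinase that drives entry into mitosis, had 184 CPM in cycling cells and 1.56 to 12.3 in other clusters. Its partner cyclin A2 (Ccna2), which acts from S phase into early mitosis, had 263, 192, 306 and 242 CPM in cycling cells of libraries 1 to 4 and 2.66 to 14.2 CPM in other clusters, 49.2-fold. Both B-type cyclins, which complete Cdk1 activation, were lower in ratio, at 23.1-fold for Ccnb1 (95.2 CPM against 2.22 to 9.81) and 20.3-fold for Ccnb2 (239 CPM against 3.82 to 33.6). Cdc20, an activator of the anaphase-promoting complex, had 140 CPM in cycling cells and 3.61 to 15.3 elsewhere. Ube2c, the ubiquitin-conjugating enzyme of that complex, had 486 CPM and 7.18 to 37.9 elsewhere.

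The Cks subunits of this group, small adaptors that dock Cdk1 to its substrates, stood apart in their background. Cks2 (ENSMUSG00000062248; chromosome 13, 51645232 to 51650660, plus strand) had 290.4, 276.5, 341 and 305 CPM in cycling cells of libraries 1 to 4. Its level was 53.3 CPM in Tn (49.1 to 57.8), 36.8 to 54.0 in the Teff and Tex clusters and lowest in Tcm at 26.0 (24.1 to 28.0), so the level of this gene in Tn overlapped that of GzmA+ Tex and was not below any Teff or Tex cluster beyond counting error. Its ratio of cycling cells to the rest was 7.57-fold (log2 2.92, libraries 2.72 to 3.05). Cks1b had 271, 272, 237 and 299.9 CPM in cycling cells, 16.7 to 36.8 elsewhere, and a ratio of 13.0-fold (libraries log2 3.51 to 3.99).

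The mitotic kinases and checkpoint proteins had a median ratio of 34.5-fold (22.6 to 47.2). Plk1, the polo kinase of spindle assembly and mitotic exit, had 126, 78.8, 161 and 110 CPM in cycling cells of libraries 1 to 4 and 1.44 to 6.29 elsewhere, 47.2-fold (log2 5.56, libraries 4.96 to 6.53). Pbk, a mitotic kinase, had 54.9, 48.3, 55.7 and 50.6 CPM in cycling cells and 0.507 to 4.601 elsewhere, 45.6-fold. In both genes library 1 had the smallest ratio, and the cycling level of Pbk differed little between libraries. Aurka, the centrosomal Aurora kinase, had 47.5 CPM in cycling cells and 1.17 to 3.99 elsewhere, and Aurkb, the Aurora kinase of the chromosomal passenger complex, had 119 CPM and 1.56 to 8.13. Birc5 (survivin), a subunit of the same complex, had 391, 401, 400 and 429 CPM in cycling cells, a narrow range, and 5.66 to 37.0 elsewhere. The spindle checkpoint genes Bub1, Bub1b and Ttk had 47.6, 70.5 and 31.2 CPM in cycling cells, against 0.613 to 5.30, 0.917 to 8.41 and 0.293 to 2.96 elsewhere.

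Centromere and kinetochore genes spanned both ends of the range, with a median of 28.9-fold. Cenpf (ENSMUSG00000026605; chromosome 1, 189640606 to 189688086, minus strand), a large protein of the outer kinetochore, had 273, 143, 390 and 161 CPM in cycling cells of libraries 1 to 4 and 1.83 to 13.2 elsewhere. Its 56.6-fold ratio (log2 5.82, libraries 5.14 to 6.44) was the highest of the 40. Nuf2, a subunit of the Ndc80 complex that binds microtubules, had 60.3, 46.4, 86.1 and 50.3 CPM in cycling cells and 0.153 to 3.99 elsewhere, 50.1-fold. The other subunits of that complex had lower ratios: Spc25 was at 64.1 CPM against 0.734 to 6.44 (23.0-fold), and Ndc80 at 60.5, 55.9, 86.1 and 56.8 CPM in libraries 1 to 4 against 3.30 to 7.82 (14.9-fold). Kif2c, a kinesin that depolymerises microtubules at centromeres, had 44.7, 27.5, 59.5 and 37.6 CPM in cycling cells and 0.367 to 3.07 elsewhere, 49.4-fold. Cenpe, the kinesin that moves chromosomes to the spindle equator, had 171 CPM and 3.16 to 17.5 elsewhere.

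Cenpa was the exception in this group. It encodes the histone H3 variant that marks centromeres and is loaded after mitosis. Cenpa (ENSMUSG00000029177; chromosome 5, 30666777 to 30674830, plus strand) had 423, 327, 342 and 393 CPM in cycling cells of libraries 1 to 4, and its ratio to the other clusters was 8.41-fold (log2 3.07, libraries 2.81 to 3.38). Outside cycling cells its level was lowest in Tcm, at 17.3 CPM, and in Tn, at 19.7 CPM (17.2 to 22.5). It had 58.8 CPM in transitory Teff (54.7 to 63.2), 70.3 in TIGIT+ Teff, 91.4 in GzmA+ Tex and 94.7 in TIM-3+ Tex (88.8 to 101). In TIM-3+ Tex the libraries had 109, 82.3, 119 (31 cells) and 79.2 CPM and in Tn 21.9, 19.98, 18.99 and 18.4, with no overlap. The level was 3.91-fold higher in Teff and Tex than in Tn and Tcm, against a median of 2.21-fold for the members.

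Spindle and microtubule genes had the highest median ratio of the 6 groups, 35.7-fold. Hmmr, a spindle protein first known as a hyaluronan receptor, had 118, 80.0, 153 and 88.8 CPM in cycling cells of libraries 1 to 4 and 0.936 to 6.70 elsewhere, 52.9-fold (log2 5.73, libraries 5.05 to 6.98). Kif4, a kinesin that binds chromosome arms, had 83.1, 48.6, 121 and 45.6 CPM and 0.819 to 6.39 elsewhere, 44.3-fold. Library 3 was highest and library 2 or 4 lowest for both. Kif11, the kinesin that separates the spindle poles, had 202 CPM and 2.11 to 18.1 elsewhere, and Tpx2, which activates Aurora A on the spindle, had 204 CPM and 4.14 to 15.8. Nusap1, Ckap2l, Ckap2 and Tacc3, proteins that bind or stabilise spindle microtubules, had 157, 97.0, 47.8 and 132 CPM in cycling cells. Their levels elsewhere were 2.29 to 9.05, 1.31 to 7.82, 1.17 to 4.83 and 6.00 to 13.8 CPM. Stmn1, a tubulin-binding protein that promotes microtubule turnover, had 867, 982, 869 and 1067 CPM in cycling cells and 37.1 to 151 elsewhere, 14.1-fold. It was lowest in Tcm, and GzmA+ Tex was highest outside cycling cells.

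Cytokinesis genes split in the same way, with a median of 21.0-fold. Anln, an actin-binding scaffold of the contractile ring, had 41.1 CPM in cycling cells and 0.550 to 3.74 elsewhere. Ect2, an exchange factor that acts at the division plane, had 51.1 CPM and 1.38 to 5.76 elsewhere. Kif20a, a kinesin of the central spindle (chromosome 18), had 58.2 CPM and 1.05 to 6.75 elsewhere. By contrast, both subunits of the centralspindlin complex had a background in resting cells. Kif23 had 117, 69.4, 149 and 89.3 CPM in cycling cells of libraries 1 to 4 and 14.1-fold the level of other clusters, with 11.5 CPM in Tn, above all of them but GzmA+ Tex (14.0). Racgap1 (ENSMUSG00000023015; chromosome 15, 99620496 to 99651656, minus strand) had 201, 159, 246 and 205 CPM in cycling cells. It was highest outside cycling cells in Tn, at 64.2 CPM (59.5 to 69.2, libraries 63.7, 61.1, 65.9 and 65.6). It was lowest in TIM-3+ Tex at 33.8 CPM (30.3 to 37.5, libraries 33.2, 25.6, 15.6 and 40.5). The libraries of Tn and TIM-3+ Tex did not overlap, though the 15.6 CPM of library 3 came from only 31 cells. For Racgap1 the ratio of cycling cells to the rest was 4.29-fold (log2 2.10, libraries 1.93 to 2.31).

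Among the genes of chromosome structure, Smc4 (ENSMUSG00000034349; chromosome 3, 69004738 to 69034623, plus strand) had 455, 395, 619 and 382 CPM in cycling cells of libraries 1 to 4. It had 217 CPM in Tn (208 to 226), 224 in TIGIT+ Teff (212 to 236) and 141 in transitory Teff (135 to 148), and its 2.55-fold ratio (log2 1.35, libraries 1.13 to 1.54) was the lowest of the 40. Top2a, the topoisomerase that untangles replicated DNA, had 657, 479.7, 1042 and 449.5 CPM in cycling cells and 15.9 to 91.8 elsewhere, 19.04-fold. Mki67, whose protein Ki-67 coats mitotic chromosomes and is the common marker of dividing cells, had 893, 472, 1633 and 436 CPM in cycling cells, 24.3-fold over the rest. The level of Mki67 in library 3 was 3.75-fold that in library 4.

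**Figure D3:**
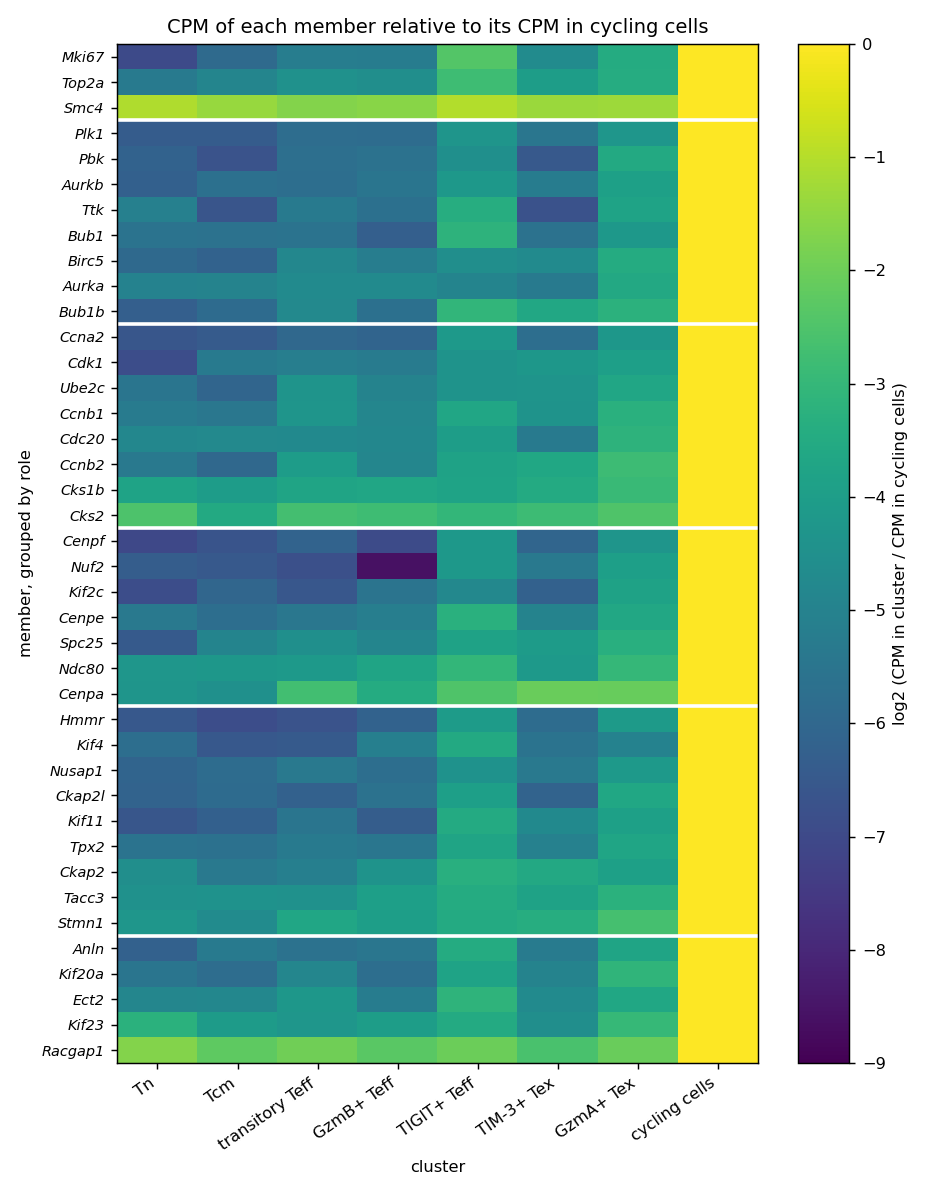
Level of each member (rows, grouped by role with white lines between groups) in each cluster (columns) as log2 of its CPM relative to its own CPM in cycling cells, libraries together. Most rows are dark from Tn to GzmB+ Teff and lighter in TIGIT+ Teff and GzmA+ Tex, whereas Smc4 and Racgap1 stay light in every cluster.

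Outside cycling cells the members were highest in GzmA+ Tex (23 members) or TIGIT+ Teff (15 members), with Cenpa in TIM-3+ Tex and Racgap1 in Tn as the exceptions. Of all 10991 genes, 7.86% were highest in GzmA+ Tex and 51.1% in TIGIT+ Teff. The members were lowest in Tcm (16 members) or Tn (13 members), against 10.8% and 41% of all genes. In Teff and Tex relative to Tn and Tcm, 25 of 40 had a ratio of at least 2 with the libraries together (9.54% of all genes did) and 11 in each library (5.35% of all genes), and the median was 2.21-fold against 1.15-fold for all genes. Mki67 (4.48-fold), Bub1b (4.30-fold), Ccnb2 (4.10-fold) and Cenpa (3.91-fold) had the largest ratios. Smc4 (0.908), Racgap1 (0.913) and Kif23 (0.935) were the members at or below 1.

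Compared with transitory Teff, TIGIT+ Teff had a ratio of at least 2 in 23 of 40 members with the libraries together, against 20.3% of all genes, but in only 5 in each library, against 3.75% of all genes. The interval of TIGIT+ Teff lay above that of transitory Teff for 27 members (43.4% of all genes). Mki67 had 158 CPM in TIGIT+ Teff (148 to 168), with 159, 93.5, 201 and 55.8 in libraries 1 to 4, against 27.6, 17.8, 38.3 and 18.6 in transitory Teff. Each library was higher in TIGIT+ Teff, and the groups did not overlap. GzmA+ Tex had a ratio of at least 2 over transitory Teff in 33 members with the libraries together, against 5% of all genes, and in 3 members in each library, against 1.64% of all genes. Its median ratio was 2.62-fold against 1.04-fold for all genes.

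The low level could lie in a few dividing cells or be spread over many. Each cell was therefore thinned at random to 2500 UMIs, and the members with at least 1 UMI were counted. Cycling cells had a median of 11 members, TIGIT+ Teff of 2 and each other cluster of 1. In cycling cells 85.0% of cells (83.3 to 86.5) had 5 or more members, with 87.3%, 78.2%, 88.5% and 81.8% in libraries 1 to 4. The share was 0.447% in Tn (0.164 to 0.971), the background cluster, and 0.527% in Tcm, 1.59% in transitory Teff, 1.91% in GzmB+ Teff and 2.27% in TIM-3+ Tex. It was 9.19% in TIGIT+ Teff (7.30 to 11.4) and 7.01% in GzmA+ Tex (5.05 to 9.42), both with intervals above those of the other 5 clusters outside cycling cells. In cells of at least 10000 UMIs the share in TIGIT+ Teff was 5.41% (12 of 222 cells, 2.82 to 9.25), which overlapped the 3.07% of TIM-3+ Tex (1.64 to 5.19). In cells without a macrophage UMI that of GzmA+ Tex was 3.33% (2 of 60 cells, 0.406 to 11.5), which overlapped the 2.02% of TIM-3+ Tex (1.22 to 3.14). Without thinning, at median depths of 5545 UMIs (transitory Teff) to 13960 UMIs (cycling cells), the shares were 98.7% for cycling cells, 40.6% for GzmA+ Tex, 37.3% for TIGIT+ Teff, 12.0% for Tn and 7.81% for Tcm (median depths of 7834 UMIs in Tn, 6047 in TIGIT+ Teff and 10378 in GzmA+ Tex). A count of 5 is a cut through a continuous range: in the 7 other clusters of 9826 cells, TIGIT+ Teff had 71 cells with 4 members and 28 with 5, and GzmA+ Tex had 28 and 10.

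**Figure D4:**
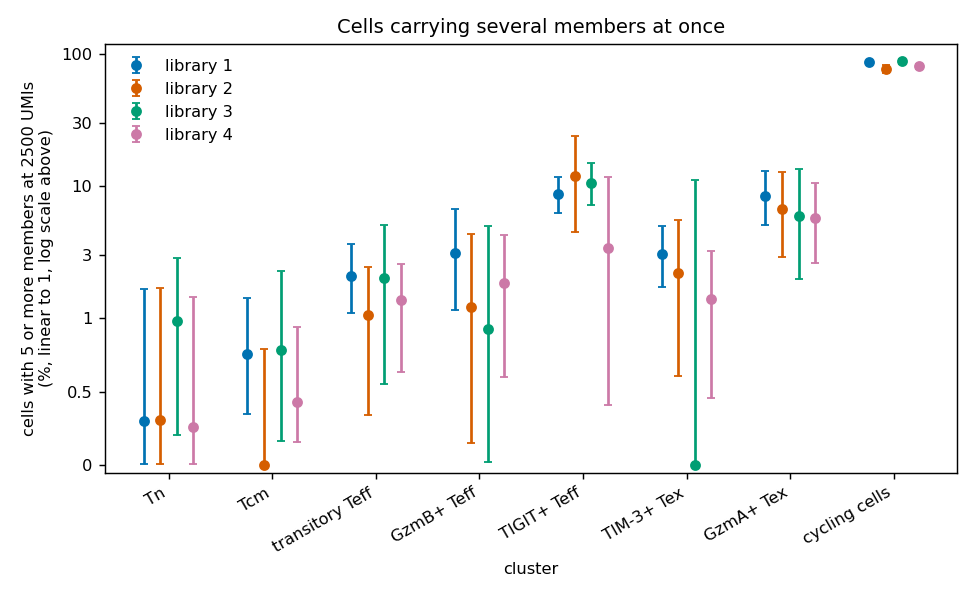
Share of cells with 5 or more members after thinning to 2500 UMIs (vertical axis in percent, linear up to 1 and logarithmic above) by cluster (horizontal axis), with 1 point per library and Clopper-Pearson 95% intervals. Cycling cells lie at 78.2% to 88.5%, and TIGIT+ Teff (3.39% to 12.0%) and GzmA+ Tex (5.73% to 8.49%) lie above Tn (0.260% to 0.984%) in each library.

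In all, 207 cells outside the cycling cluster carried 5 or more members, 2.11% of these cells with 13.6% of their member UMIs. The remaining 86.4% of the member UMIs lay in cells with fewer than 5. The 75 such cells of TIGIT+ Teff held 25.2% of its member UMIs, and the 40 of GzmA+ Tex held 38.1%. Of the 207 cells, 108 (52.2%) also had 5 or more of 35 S phase genes, against 8.06% of the other cells. The share was uneven: 55 of 75 cells in TIGIT+ Teff, 23 of 40 in GzmA+ Tex and 11 of 24 in TIM-3+ Tex. It was 7 of 14 in GzmB+ Teff, 8 of 18 in Tcm, 4 of 30 in transitory Teff and 0 of 6 in Tn. The 9 cells named cycling but placed elsewhere by the deposited Leiden number had 3433 CPM of the members, and the 23 cells in the opposite position had 2582 CPM, both between cycling cells and the rest.

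Cenpa and Mki67 differed between clusters even in cells with little other mitotic RNA. Among cells with at most 1 other member after thinning, Cenpa stood at 13.5 CPM in Tn (11.1 to 16.3), and Tcm overlapped it at 16.1 CPM. The same cells had 44.9 CPM in transitory Teff (40.6 to 49.4), 59.0 in TIGIT+ Teff and 74.7 in TIM-3+ Tex (68.4 to 81.5), a log2 ratio of TIM-3+ Tex to Tn of 2.47 (2.17 to 2.78). Mki67 in such cells was at 80.1 CPM in TIGIT+ Teff (70.9 to 90.1), at 30.2 CPM in TIM-3+ Tex, and at 4.31 CPM in Tn (2.99 to 6.03). For Mki67, unlike Cenpa, Tcm did not overlap Tn: it stood higher, at 12.0 CPM. The Mki67 gene spans 26578 bases, and the ratio of TIGIT+ to transitory Teff rose with span, as given below. Of the 40 members, the interval of the ratio of TIM-3+ Tex to Tn in such cells lay above 1-fold for 11, below it for 6 and held it for 23. Among all genes, taken in cells with at most 1 member in all, 41.8% lay above and 13.3% below. An interval above 1-fold was thus no more frequent among the members than among all genes. Bub1b (log2 3.13), Cdk1 (2.70), Kif11 (2.07) and Spc25 (2.03) were among the 11, each from at most 13 UMIs in Tn, as were Ccnb2 (1.44) and Ube2c (1.06). The 6 below were Kif23 (-1.40), Cdc20 (-1.21), Racgap1 (-0.99), Cks1b (-0.43), Cks2 (-0.42) and Smc4 (-0.25). These members were named after their values were seen.

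TIGIT+ Teff cells with 5 or more members shared their TCR clonotype with a cycling cell of the same library in 28 of 36 cells with a TCR (77.8%, 60.8 to 89.9), against 172 of 328 (52.4%, 46.9 to 58.0) of the TIGIT+ Teff cells with fewer. By library it was 14 of 17, 1 of 3, 11 of 14 and 2 of 2, against 76 of 148, 6 of 17, 77 of 138 and 13 of 25. Cells of an expanded clone are not independent, and the direction held in libraries 1, 3 and 4. In transitory Teff it was 12 of 23 against 861 of 1421 cells, and in TIM-3+ Tex 6 of 8 against 461 of 567, with overlapping intervals in both. Among Tcm it was 1 of 13 against 7 of 2687, and among Tn 0 of 5 against 13 of 1142.

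Macrophage transcripts were higher in the GzmA+ Tex cells that carried many members. All 8 macrophage markers were found there (summed 1450 CPM, 987 to 1673 by library, led by Cd74, Lyz2 and Apoe), whereas in the other clusters the sum was at most 92.1 and Adgre1 was at 0 in GzmB+ Teff. In GzmA+ Tex cells with 5 or more members the sum was 2281 CPM, against 1376 in the rest of the cluster, and it was the higher of the pair in each library. Erythroid markers had 166 against 12.5 CPM, a difference that rested on library 3 (1879 CPM, at most 13.7 in the others). Plasma and myeloma markers went the other way, at 156 against 232 CPM, and this rested largely on library 3 (113 against 658). Jchain, from this list, had 58.4 CPM in GzmA+ Tex and 1.53 to 4.21 in the other clusters. At least 1 UMI of Lyz2, Apoe, C1qa, C1qb, Csf1r or Adgre1 was in 511 of 571 GzmA+ Tex cells. In the cells without one, the member level was 1092 CPM. A TRB pair was called in 4 of 16 GzmA+ Tex cells with 5 or more members and 4 of 8 in TIM-3+ Tex, against 33 of 215 and 76 of 565 of the cells with fewer. In TIGIT+ Teff it was 2 of 34 against 43 of 319, and over the 7 other clusters together 14 of 105 against 563 of 6765, and the intervals overlapped in each of these pairs. No doublet was removed here, and the part of doublets in these values was not tested.

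Within the cycling cluster the number of members per cell covered a wide range, and cells with more members had fewer S phase genes. Of 1928 cells, 290 (15.04%) had 0 to 4 members at 2500 UMIs, 492 had 5 to 9, 459 had 10 to 14, 413 had 15 to 19, and 274 (14.2%) had 20 or more. The median number of S phase genes went from 11 to 10, 9, 7 and 7 over these bins. Of all cycling cells, 1219 (63.2%) had 5 or more of both lists, 271 (14.1%) had 5 or more S phase genes only, 419 (21.7%) had 5 or more members only, and 19 had neither. The bin with 20 or more members held 13.6%, 6.99%, 26.2% and 10.3% of cycling cells in libraries 1 to 4, and its median of 9436 UMIs per cell was below the 14046 to 14981 of the other bins.

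To see which members followed the others most closely, each was compared between cycling cells with 15 or more and with fewer than 5 other members. All 40 were higher in the former, with intervals above 1-fold, from 1.69-fold to 45.0-fold. The cells were split by genes of the same list, so this direction was largely given by the split and is no test. Split by all members, 28.7% of all genes had an interval above 1-fold and 15.9% below. The steepest were Cenpf (45.0-fold), Ube2c (24.8), Plk1 (24.4), Aurka (23.9), Hmmr (22.3) and Kif2c (21.3). The flattest were Stmn1 (1.69-fold), Smc4 (3.36), Cks1b (3.45), Pbk (4.17), Spc25 (4.48) and Cenpa (4.76). Stmn1 had 699 CPM even in cycling cells with fewer than 5 other members, against 49.0 CPM in Tn. Of the 35 S phase genes, 27 were lower in cycling cells with 15 or more members than in those with fewer than 5, and 6 were higher. Ung, a uracil glycosylase (0.0542), E2f1, a transcription factor of S phase entry (0.170), and Cdc6, which licenses replication origins (0.231), had the lowest ratios. Rrm2 (2.27) and Rrm1 (1.61), the ribonucleotide reductase subunits, Pclaf (1.94), Clspn (1.36), Tyms (1.21) and Tk1 (1.13) were the 6 that were higher.

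Most other genes of the pathway were also higher in cycling cells. Of 90 genes from a separate list of G2/M regulators, kinesins, kinetochore and condensin subunits and cell cycle inhibitors, 80 had a ratio of at least 2 in cycling cells over the rest, 77 did so in each library, and 0 had a ratio of 0.5 or below (7.38% and 5.22% of all genes had the former, as above). The median was 13.0-fold. The largest ratios were those of Mxd3, a Max-binding repressor (75.3-fold), Espl1, the separase protease (65.6), Kif18b, a kinesin of microtubule ends (57.1), and Esco2, which acetylates cohesin (53.2). The smallest were the antiproliferative genes Btg1 (0.509) and Btg2 (0.624), the Cdk inhibitor Cdkn1b (0.775), and the quiescence factor Klf2 (1.11). All 35 S phase genes had a ratio of at least 2 (34 in each library), with a lower median of 4.71-fold. Rrm2 (33.7-fold), Pclaf (29.6), Clspn (16.3) and Tk1 (14.4) led that list, and Cdt1 (2.19), Mcm6 (2.33), Ung (2.38) and Slbp (2.52) were its lowest.

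In cycling cells the libraries differed more in long than in short members. Of the 40 members, 35 were highest in library 3 (47.4% of 9390 genes with at least 10 UMIs in each library) and 30 were lowest in library 2 (32.5% of genes). The 11 members whose gene spans under 10000 bases, among them Cks1b, Cdc20, Birc5 and Cenpa, summed to 3438, 3130, 3508 and 3608 CPM in libraries 1 to 4. The 29 longer members summed to 4981, 3491, 7219 and 3681 CPM. Library 3 over library 4 was 3.75-fold for Mki67, 2.78 for Ect2, 2.66 for Kif4 and 2.61 for Cenpe, but 0.933 for Birc5, 0.872 for Cenpa, 0.815 for Stmn1 and 0.790 for Cks1b. The interval lay above 1-fold for 33 members (38.7% of genes), below it for 4 (15.1% of genes), and held it for Pbk, Cdk1 and Ccnb2. Across the 40 members, the Spearman rank correlation between this ratio and the span of the gene was 0.83, and it was 0.43 across 9390 genes, which share the same cells and libraries. The rank correlation over the members was 0.36 to 0.75 for the other pairs of libraries. The grouping by span was chosen after these values were seen.

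**Figure D5:**
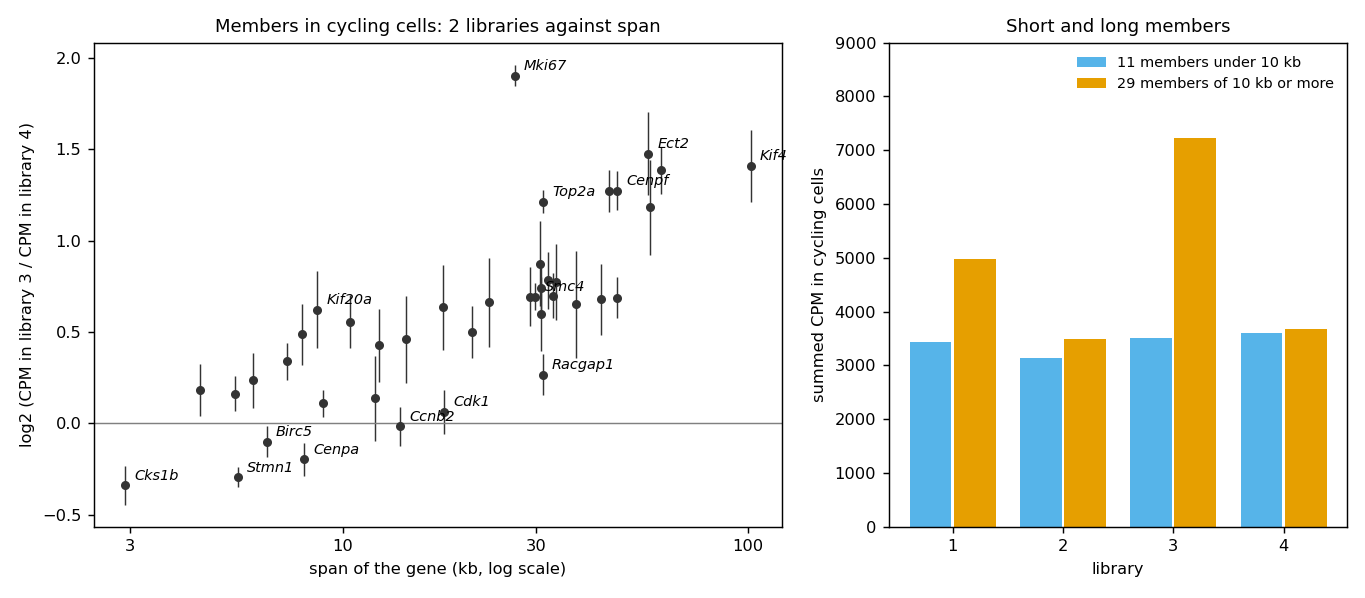
Left, log2 ratio of CPM in cycling cells of library 3 to library 4 (vertical axis, 95% intervals) against the span of each member's gene in kb (horizontal axis, log scale). Right, summed CPM of the 11 members under 10 kb and the 29 longer members in cycling cells of libraries 1 to 4; short members keep to 3130 to 3608 CPM while long members range from 3491 to 7219.

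The RNA content of the cells moved with this difference. Cycling cells of 2500 to 5000 UMIs made up 11.7%, 3.93%, 13.8% and 4.41% of the cluster in libraries 1 to 4. These 177 cells had 16884 CPM of the members, against 7653 in cycling cells of 10000 UMIs or more, but 3020 against 3475 CPM of the short members. They had a median of 4.397% mitochondrial RNA (1.69% in the larger cells). Of their summed UMIs, 0.768% were Malat1 (0.214%) and 7.28% ribosomal protein transcripts (20.7%, 99 genes). With cells of at least 10000 UMIs alone, the members had 7675, 6427, 9432 and 7216 CPM in libraries 1 to 4, so library 3 was still highest. The S phase genes, summed in all cycling cells, had 4788, 5260, 5198 and 5222 CPM. Which part of the difference between libraries RNA quality makes up was not tested, and with 1 library per treatment library and treatment cannot be told apart.

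TIGIT+ Teff showed the same dependence on span. Against its values above, transitory Teff had a median of 1.67% mitochondrial RNA, with 0.298% Malat1 and 26.2% ribosomal protein transcripts among the summed UMIs. The ratio of TIGIT+ to transitory Teff had a median of 1.22-fold over the 11 members under 10000 bases, 2.17-fold over 12 of 10000 to 30000, and 3.22-fold over 15 of 30000 to 60000. The medians of all genes in these classes were 0.966, 1.22 and 1.58. The rank correlation between this ratio and span was 0.61 over the 40 members and 0.50 over 10520 genes. The short members alone had 255 CPM in transitory Teff, 461 in GzmA+ Tex and 172 in Tn. With the libraries together, GzmA+ Tex was thus still the highest outside cycling cells by this sum. That did not hold in library 3. There GzmA+ Tex had 266 CPM of the short members, against 394 in TIM-3+ Tex, 315 in transitory Teff and 293 in TIGIT+ Teff.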

How the data were processed

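CD8+ T cells of 4 libraries were captured with a 5′ single-cell kit and sequenced for gene expression and TCR. Per the labels, the authors used Cell Ranger 7.00 and mm10, and by their methods they downsampled reads across libraries and kept cells by UMI number, mitochondrial share, Cd3e/g and Cd8a. The deposited expression values are raw UMI counts per gene and cell with no normalization, and the deposited mitochondrial share is a fraction of a cell's UMIs. Cluster names and Leiden numbers (Monocle3) and clonotypes (scRepertoire) are the authors'. All cells were used, and 0 columns were left unused. Symbols came from GENCODE M21 (GRCm38), for 17534 of 17561 genes. No member shares its strand with another protein-coding gene, and Ccna2, Cdc20, Kif20a, Kif4, Nusap1, Tacc3 and Ube2c overlap one on the opposite strand.

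The members and lists were chosen with earlier results of these data known. Values were computed for all 40 members, and those with the 8 highest and 8 lowest ratios were described by library. Of the other 2 lists, the 4 highest and 4 lowest ratios were named. UMIs were summed per cluster and library to CPM with 95% intervals, and genes needed 100 UMIs to be counted, with a ratio of at least 2 called. For counts of members per cell, each cell was thinned to 2500 UMIs (seed 7). No doublets were removed, and none of the sources read states their removal. Marker lists for CD8 T, cycling, naive and central memory, exhausted, macrophage, plasma, B, erythroid, neutrophil, NK and progenitor cells were summed. Promoter windows are those of RefSeq, and 7 members had none. Alternatives changed the depth, weight and labels of cells, the members summed, the clusters compared, the number of members required, and the libraries. Alternatives using large cells, short members or cells without macrophage UMIs were chosen after seeing the data. Scripts ran in Python 3.11.15 with pandas 2.3.3, scipy 1.17.1, matplotlib 3.10.9 and numpy 2.4.6, and were tested on simulated data.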

Additional observations from a re-analysis of the deposited data

How the results depend on the processing

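No log2 ratio of cycling cells to the others, or of Teff and Tex to Tn and Tcm, changed sign under the alternatives below. The order of clusters did change: TIGIT+ Teff was below TIM-3+ Tex over the short members (292 against 308 CPM), and Tn was below GzmB+ Teff without 5 abundant members. TIGIT+ Teff was also above GzmA+ Tex after thinning and as a mean of single-cell CPM, the reverse of their order in the summed CPM. With 1 library per treatment, pooled mice and no replicates, the values describe these 4 libraries, and depth limits shares in small clusters (library 3 held 31 TIM-3+ Tex cells, library 2 held 50 TIGIT+ Teff cells). No paired analysis was possible because each group is 1 library and the library numbers carry no treatment. Clusters are given below in the order Tn, Tcm, transitory Teff, GzmB+ Teff, TIGIT+ Teff, TIM-3+ Tex, GzmA+ Tex and cycling cells, and the cause of each shift was not tested unless the alternative's construction gives it.

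With one library left out at a time, the summed CPM ranged over 515 to 549.6, 415 to 459.9, 557 to 608, 487 to 533, 958 to 1052, 616 to 741, 954 to 1079 and 7763 to 8652. Cycling cells over the others gave log2 3.71 to 3.86, that of Teff and Tex to Tn and Tcm 0.54 to 0.69, and the median member's 4.66 to 5.15. The share of cells with 5 or more members was 0.289% to 0.522%, 0.403% to 0.610%, 1.36% to 1.76%, 1.48% to 2.11%, 8.44% to 9.74%, 1.58% to 2.72%, 6.13% to 7.49% and 83.2% to 86.1%. The Tn share went from 0.447% to 0.289% without library 3.

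Without Stmn1, Cks1b, Cks2, Smc4 and Top2a the summed CPM was 180.3, 158, 269, 212, 557, 322, 557 and 5649.9, with log2 ratios of 4.39 and 1.13 for the same contrasts. Thinned to 2500 UMIs it was 424 in Tcm, then 559, 492, 1104, 639.8, 943 and 9271, with 4.00 and 0.62, and 5.02 for the median member. As a mean of single-cell CPM it was 416 in Tcm, 559 in transitory Teff, 1111 in TIGIT+ Teff, 655 in TIM-3+ Tex, 959 in GzmA+ Tex and 9308 in cycling cells, with 4.00, and 5.01 for the median member. By Leiden number it was 580.5, 401, 611, 492, 676 (TIM-3+ Tex), 1009 and 8217, and the Tcm share was 0.304%. Without GzmA+ Tex the log2 ratios were 3.86 and 0.54. In cells of at least 10000 UMIs, TIGIT+ Teff had 907 and cycling cells 7653 CPM, with 3.35 and 0.48, and the TIGIT+ Teff share was 5.41%. Members spanning under 10000 bases summed to 292 CPM in TIGIT+ Teff and 3461 in cycling cells, with 3.95 and 1.10. In cells without a macrophage UMI, GzmA+ Tex had 1092 CPM and a share of 3.33%.

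The share of cells with 3 or more members was 7.68%, 5.47%, 12.6%, 9.43%, 30.4%, 14.7%, 22.4% and 94.9%, with 8 or more 0.0745%, 0%, 0.0529%, 0.273%, 2.33%, 0.0947%, 2.28% and 69.6%, and with 5 or more without thinning 12.0%, 7.81%, 14.7%, 16.7%, 37.3%, 28.7%, 40.6% and 98.7%. Of single members, 31 moved beyond their counting interval without library 1, 21 without library 4, 4 without library 3 and 0 without library 2. After thinning to 2500 UMIs 23 moved, with the mean of single-cell CPM 25 moved, and by Leiden number all 40 stayed the same.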
